A study of Homo sapiens with 4 samples.

Results

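LINC00460, LUCAT1, LINC00839 and FOXD2-AS1 are 4 long noncoding RNAs (lncRNAs) that are known for raised levels in human carcinomas. They were taken by name, as every row of the deposited table whose name before its final number was one of these. They were 4 of the 46902 lncRNA genes listed, and 44 of its 104786 isoform rows. LUCAT1 held 20 of these rows, LINC00460 held 14, LINC00839 held 8 and FOXD2-AS1 held 2. The question was whether these lncRNAs differ between a cell line selected for growth in the lung and its parent.

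The selected line was MDA-MB-231-P3, made by injecting MDA-MB-231 cells into tail veins of mice, recovering and expanding the cells that grew in the lung, and repeating this. The other group was the parental line MDA-MB-231, which comes from a human triple-negative breast cancer. Each line gave 2 strand-specific libraries, 4 in all, from cultured cells. The subline is a single selected population. Nothing in the labels says that libraries of the same line were separate cultures, and p-values then cover only library-to-library spread, which may be technical. Values are FPKM, fragments scaled by the length of the transcript and the number of mapped fragments, for each isoform row, and read depth is unknown.

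A lncRNA is annotated as not coding for protein, and many act as RNA. In the nucleus such RNAs can hold proteins at chromatin, and in the cytoplasm they can bind proteins, messenger RNAs or microRNAs. LUCAT1, lung cancer associated transcript 1, was described in airway cells exposed to cigarette smoke, is known as a target of the stress factor NRF2, and restrains interferon responses in immune cells. LINC00460 is known from studies of migration and of the epithelial-mesenchymal transition in carcinomas. LINC00839 has been reported at raised levels in several tumours, breast cancer among them. FOXD2-AS1 lies beside FOXD2, which encodes a forkhead transcription factor, and is transcribed away from it.

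The 4 genes lie on separate chromosomes (GENCODE release 44 on GRCh37, the sequence of hg19). LINC00460, ENSG00000233532.6, is on the plus strand at chr13:107026825-107036663, with 7 annotated transcripts. The nearest protein-coding gene is EFNB2, 105.4 kb away, which encodes the membrane ligand ephrin-B2. LUCAT1, ENSG00000248323.8, is on the minus strand at chr5:90350651-90610364, with 65 annotated transcripts of 2 to 10 exons. Its far end overlaps ADGRV1 on the opposite strand, and ARRDC3, an arrestin-domain gene, lies 54.1 kb beyond its start. LINC00839, ENSG00000185904.12, is on the plus strand at chr10:42970928-42990785, with 9 annotated transcripts, 78.8 kb from the zinc finger gene ZNF33B. FOXD2-AS1, ENSG00000237424.1, is a single-exon transcript of 2509 bases on the minus strand at chr1:47897805-47900313, and its start lies 3403 bases from the start of FOXD2. None of the 82 annotated transcripts of the 4 genes aligned to a transcript of another gene over at least 200 bases at 95% identity or more, so no near-identical copy was found in this annotation. The files do not tie their numbered rows to annotated transcripts, so a row's exons are not known here.

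The 4 promoters, taken from RefSeq (250 bases before to 50 after the start), were compared as a feature that the choice of genes did not use. Each of the 300-base sequences matched the GRCh37 genome exactly at 1 place. The 3 that follow are shown because each held at least 1 of the motifs searched, and that of FOXD2-AS1, which held none, is named only. Capitals mark TGANTCA, the motif of the AP-1 factors FOS and JUN, in the first and second sequence, and CCAAT on either strand in the third. The windows are chr13:107028662-107028961 (plus strand), chr5:90610170-90610469 (minus strand) and chr10:42970689-42970988 (plus strand) on GRCh37, each written 5′ to 3′ along the gene.
LINC00460: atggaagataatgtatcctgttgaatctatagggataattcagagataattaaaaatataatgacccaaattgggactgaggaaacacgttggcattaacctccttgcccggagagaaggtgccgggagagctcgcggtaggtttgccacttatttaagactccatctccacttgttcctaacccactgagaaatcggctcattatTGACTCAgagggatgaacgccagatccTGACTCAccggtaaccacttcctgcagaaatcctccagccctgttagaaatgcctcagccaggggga
LUCAT1: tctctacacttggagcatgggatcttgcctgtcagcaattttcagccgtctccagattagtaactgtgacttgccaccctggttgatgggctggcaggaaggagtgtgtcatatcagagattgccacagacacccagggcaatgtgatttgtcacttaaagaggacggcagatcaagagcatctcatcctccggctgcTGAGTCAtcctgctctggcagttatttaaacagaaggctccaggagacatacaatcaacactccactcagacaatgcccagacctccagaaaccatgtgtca
LINC00839: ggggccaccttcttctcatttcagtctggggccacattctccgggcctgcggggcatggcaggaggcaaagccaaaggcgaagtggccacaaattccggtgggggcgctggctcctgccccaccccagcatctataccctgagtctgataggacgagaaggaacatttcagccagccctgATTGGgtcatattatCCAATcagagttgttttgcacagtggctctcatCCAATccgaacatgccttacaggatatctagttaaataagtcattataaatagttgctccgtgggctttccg

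TGANTCA began at positions -44 and -17 from the start of LINC00460 and at -52 from that of LUCAT1, and was absent from the windows of LINC00839 and FOXD2-AS1. Of 35116 RefSeq promoters of this length, 7.71% held it at least once and 0.515% held it 2 or more times. The core of the antioxidant response element, TGACNNNGC on either strand, which NRF2 binds, matched once in LUCAT1, on the opposite strand from position -54, and overlapped the TGANTCA match. It was in 13.3% of promoters. LINC00839 held CCAAT 3 times, 1 of them on the opposite strand, LINC00460 held it once on the opposite strand, and 34.6% of promoters held it. LINC00839 also held TATAAA once, after its start (11.5% of promoters), and no member held the E-box CACGTG (7.26%). These matches describe letters only. Of the annotated starts, 49 of 65 for LUCAT1, 4 of 7 for LINC00460, 2 of 9 for LINC00839 and the 1 for FOXD2-AS1 fell in these windows.

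All 4 lncRNAs were detected in both lines, and none passed the test between them. LUCAT1 was the most abundant on the FPKM scale, then LINC00460, LINC00839 and FOXD2-AS1, taking the mean over the 4 libraries. Summed over its isoform rows, LINC00839 was at 0.641 of the parental level in MDA-MB-231-P3, with both subline libraries below both parental ones. For LUCAT1, LINC00460 and FOXD2-AS1 the libraries of the lines overlapped. By limma on log2(FPKM + 0.5), with Benjamini-Hochberg adjustment over 6444 tested genes, 0 of the 4 members were called at 0.05, where 0.0621% of all tested genes were, and 0 of the 4 had an unadjusted p under 0.05, where 15.2% of all genes did. With 2 libraries against 2, an exact permutation test of a single value cannot pass 0.05.

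**Figure D1:**
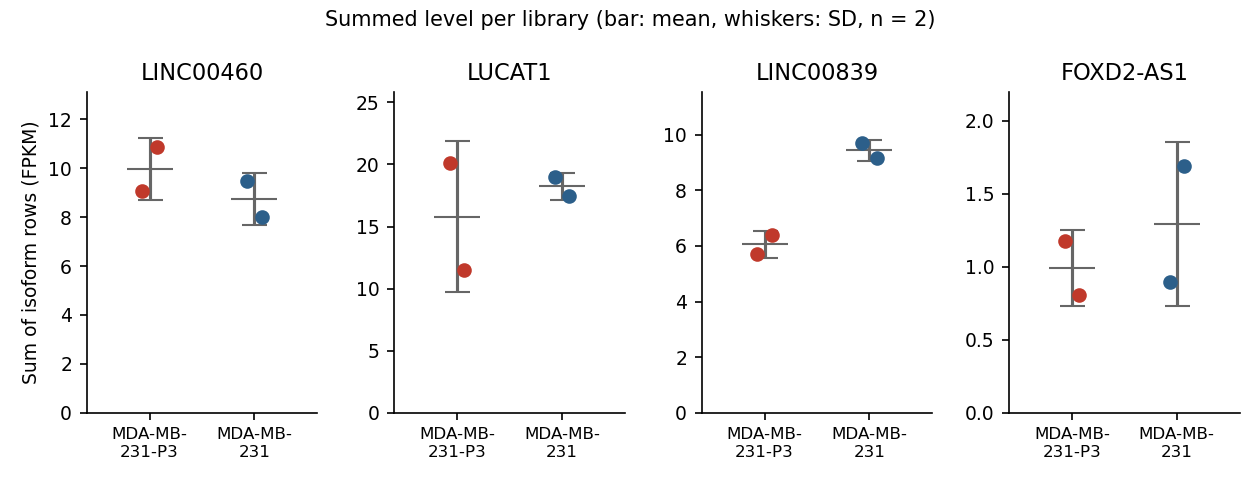
Summed level of each lncRNA in FPKM (vertical axis, from 0) in the 2 MDA-MB-231-P3 libraries (left, red) and the 2 MDA-MB-231 libraries (right, blue), with the mean and SD. The lines are apart for LINC00839, at 5.71 and 6.40 against 9.71 and 9.17 FPKM, and overlap for the other 3.

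LINC00839 had 5.71 and 6.40 FPKM in the MDA-MB-231-P3 libraries and 9.71 and 9.17 FPKM in the MDA-MB-231 libraries. Its libraries were close within each line, and both subline values were lower. The means were 6.05 ± 0.483 FPKM in MDA-MB-231-P3 and 9.44 ± 0.381 FPKM in MDA-MB-231 (SD, n = 2 each). The log2 difference was -0.60 (SE 0.25, 95% interval -1.27 to 0.07, limma adjusted p = 0.352). It was negative under each of the other settings tried, from -0.83 to -0.53. LINC00839 was the 1 member of 4 whose subline libraries both lay below the parental ones, as did 21.4% of all tested genes, and 0 of 4 lay above, against 28.9% of all genes. The difference was not called, and in these bulk libraries fewer cells with the RNA and less RNA per cell cannot be told apart.

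LUCAT1 had 20.1 and 11.5 FPKM in the subline libraries and 19.02 and 17.5 FPKM in the parental ones. The spread in the subline was wider than its gap to the parent, since its first library lay above and its second below both parental values. The mean was 15.8 ± 6.08 FPKM in MDA-MB-231-P3 and 18.2 ± 1.10 FPKM in MDA-MB-231 (SD, n = 2 each), with a log2 difference of -0.25 (SE 0.36, 95% interval -1.22 to 0.71, limma adjusted p = 0.741). Without MDA-MB-231-P3 library 2 the difference was 0.14, and without library 1 it was -0.64.

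LINC00460 had 9.08 and 10.9 FPKM in the subline and 9.49 and 8.002 FPKM in the parent, so the lines overlapped. The means were 9.97 ± 1.26 FPKM in MDA-MB-231-P3 and 8.75 ± 1.05 FPKM in MDA-MB-231 (SD, n = 2 each). The log2 difference was 0.18 (SE 0.27, 95% interval -0.54 to 0.90, limma adjusted p = 0.755).

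FOXD2-AS1, the lowest of the 4, had 1.18 and 0.808 FPKM in the subline and 0.894 and 1.69 FPKM in the parent. Its highest and its second lowest values both came from the parent. The means were 0.992 ± 0.261 FPKM in MDA-MB-231-P3 and 1.29 ± 0.562 FPKM in MDA-MB-231 (SD, n = 2 each), with a log2 difference of -0.24 (SE 0.37, 95% interval -1.22 to 0.74, limma adjusted p = 0.763). Without MDA-MB-231 library 2 it was 0.088.

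By mean level, LUCAT1 ranked 397, LINC00460 ranked 639, LINC00839 ranked 757 and FOXD2-AS1 ranked 3782 among the 6444 tested genes, whose median was 1.43 FPKM. LINC00460 and LINC00839, neighbours in this order, overlapped in the parent, whereas in the subline both values of LINC00839 lay below both of LINC00460. LUCAT1 lay above LINC00460 in every library, and FOXD2-AS1 lay below the other members in every library. The gap between the 2 libraries of a line on the log2 scale was 0.15 in the subline and 0.08 in the parent for LINC00839, against medians of 0.38 and 0.45 over all tested genes. For LUCAT1 the gaps were 0.78 in the subline and 0.12 in the parent, and for FOXD2-AS1 they were 0.36 and 0.65. Over all tested genes the median log2 difference between the lines was 0.09 and the median size of the difference was 0.51.

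**Figure D2:**
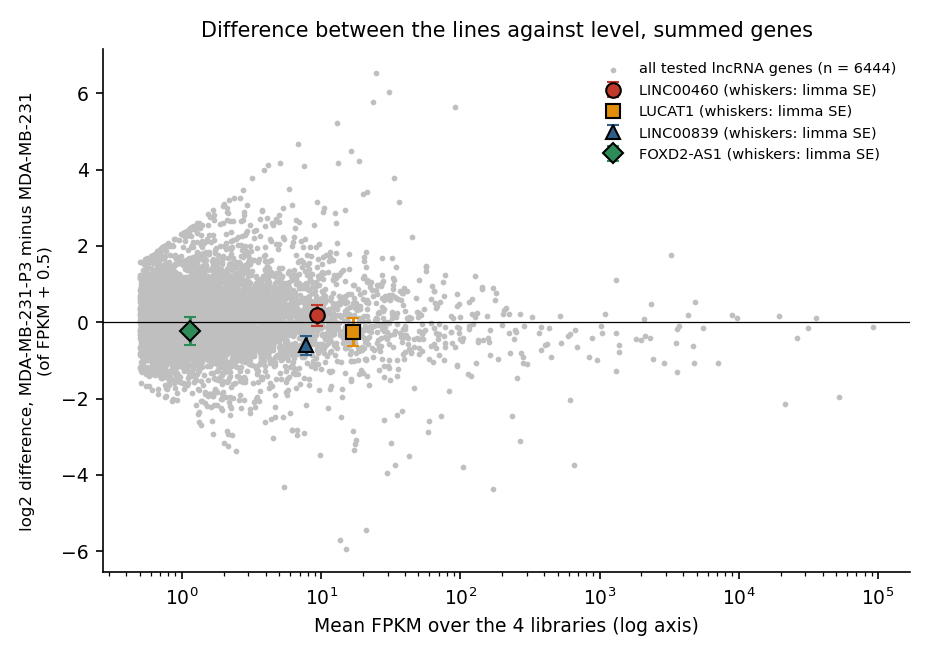
Log2 difference of FPKM + 0.5 (vertical axis, MDA-MB-231-P3 minus MDA-MB-231) against the mean FPKM of the 4 libraries (horizontal log axis) for 6444 summed genes in grey and the 4 members with their limma SE. The members sit inside the grey cloud, between -0.60 for LINC00839 and 0.18 for LINC00460.

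Below these sums, the isoform rows behaved differently from gene to gene. Of the 44 rows, 21 had a mean of at least 0.5 FPKM and were tested: 9 of LUCAT1, 7 of LINC00460, 3 of LINC00839 and 2 of FOXD2-AS1. None of the 21 was called over the 8432 rows tested by limma, where 0.0% of all rows were, and 1 had an unadjusted p under 0.05, where 13.3% of all rows did. Both subline libraries lay below both parental ones for 6 of the 21 rows (20.7% of all rows) and above them for 2 (27.3% of all rows). The remaining 23 rows were not tested, and none of them exceeded 0.857 FPKM in any library. Of all 44 rows, 9 were under 0.001 FPKM in every library. Another 13 were at 0.5 FPKM or more in at least 1 library and under 0.01 FPKM in another, and values so near 0 can be failed estimates of a row's share.

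**Figure D3:**
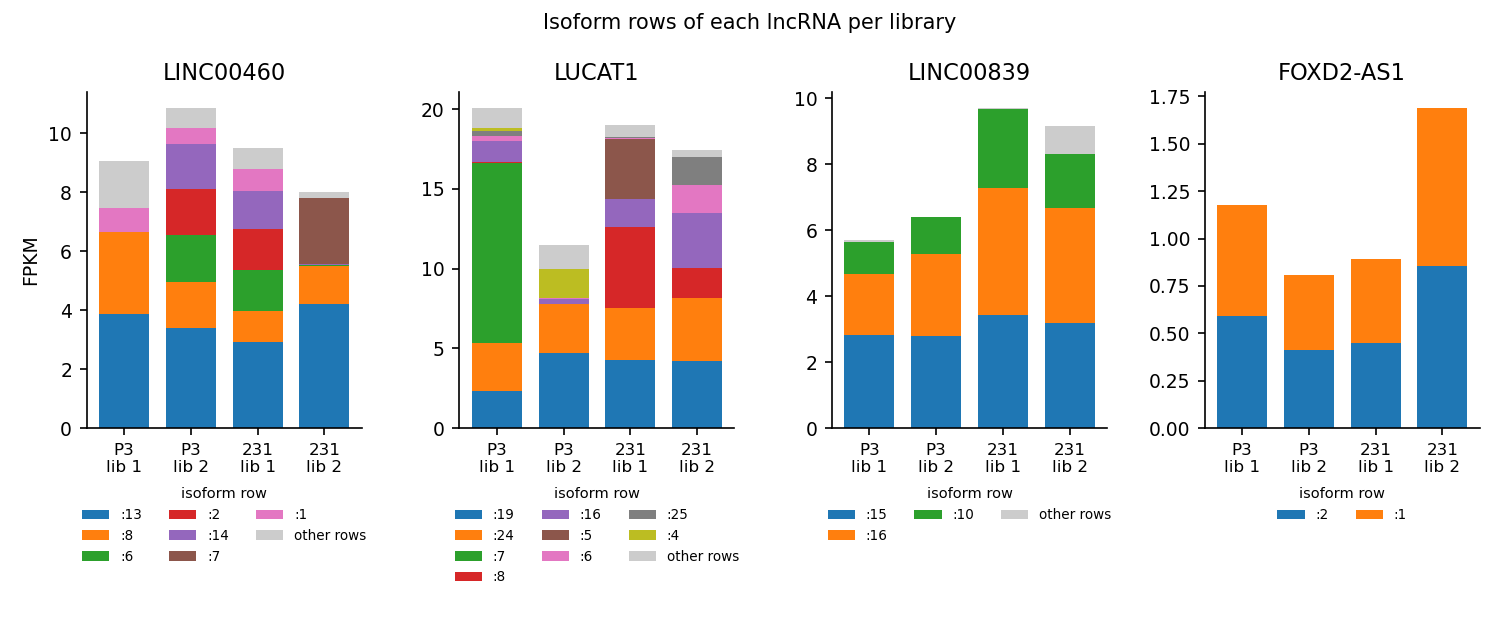
Stacked FPKM (vertical axis) of the isoform rows of each lncRNA in the 2 MDA-MB-231-P3 libraries (P3, left) and the 2 MDA-MB-231 libraries (right), with tested rows in colour and all others in grey. Row 7 of LUCAT1, in green, fills 56.4% of the first subline library and is near 0 in the others, while 3 tested rows make up most of LINC00839 in every library.

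LUCAT1 was spread over rows that differed even between libraries of a line. Its leading row was LUCAT1:7 in subline library 1, with 56.4% of the sum, and LUCAT1:19 in subline library 2, with 41.0%. In the parent it was LUCAT1:8 in library 1, with 26.6%, and LUCAT1:19 in library 2, with 24.2%. Across all 3028 tested genes with at least 2 rows, the leading row was the same in all 4 libraries for 43.3%, in both subline libraries for 65.5% and in both parental libraries for 62.2%.

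A pair of LUCAT1 rows was present at 2 FPKM or more in every library. LUCAT1:19 had 2.30 and 4.70 FPKM in the subline and 4.25 and 4.23 FPKM in the parent (limma adjusted p = 0.746). LUCAT1:24 had 3.01 and 3.07 FPKM in the subline and 3.30 and 3.90 FPKM in the parent (limma adjusted p = 0.752). LUCAT1:24 was the steadier of this pair between libraries of the subline, and its subline values lay just below the parental ones.

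The other tested LUCAT1 rows were near 0 in at least 1 library, except LUCAT1:16. LUCAT1:7 had 11.3 FPKM in subline library 1 and was listed near 0 in the other 3 libraries. LUCAT1:8 was at 0.0882 FPKM and near 0 in the subline and at 5.07 and 1.90 FPKM in the parent, which gave the smallest p of any member row (log2 difference -2.75, SE 0.51, unadjusted p = 0.00499, limma adjusted p = 0.278). Values so near 0 can be failed estimates of a row's share, so a lack of this row in the subline was not shown. LUCAT1:16 also lay lower in the subline, with 1.28 and 0.361 FPKM against 1.76 and 3.48 FPKM in the parent (limma adjusted p = 0.415). LUCAT1:4 ran the other way: it reached 0.199 and 1.83 FPKM in the subline, whereas each parental library listed it near 0 (limma adjusted p = 0.534). With LUCAT1:24, these made 3 lower rows and 1 higher row among the 9 tested rows of LUCAT1. The lines overlapped in the other 5. Of all tested rows, 20.7% had both subline libraries below both parental ones and 27.3% had both above. For LUCAT1:8 and LUCAT1:4 the separation rests on values near 0. LUCAT1:5 stood at 3.78 FPKM in parental library 1 and near 0 elsewhere. LUCAT1:6 and LUCAT1:25 had the same values to within a ratio of 1.001, with 0.306 and 0.00405 FPKM in the subline and about 0.0457 and 1.75 FPKM in the parent.

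The sum of LUCAT1 in the subline therefore depended on LUCAT1:7. Without this row, LUCAT1 had 8.76 and 11.5 FPKM in MDA-MB-231-P3 and 19.02 and 17.5 FPKM in MDA-MB-231, so the lines no longer overlapped. The log2 difference was then -0.83 (SE 0.28, limma adjusted p = 0.304), still not called. Without LUCAT1:8 instead it was 0.04 (limma adjusted p = 0.962). Leaving out these rows was chosen after the values were seen, and whether LUCAT1:7 holds reads that belong to the other rows was not tested.

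LINC00839 was carried by 3 rows, each at 0.9 FPKM or more in every library. In all 3 both subline libraries lay below both parental ones, as did 20.7% of all tested rows. These rows make up most of the sum given above, so they are not separate evidence of a lower level. LINC00839:15 had 2.81 and 2.78 FPKM in the subline and 3.43 and 3.19 FPKM in the parent, a log2 difference of -0.21 (limma adjusted p = 0.747). LINC00839:16 had 1.85 and 2.50 FPKM in the subline and 3.85 and 3.49 FPKM in the parent, a log2 difference of -0.65 (limma adjusted p = 0.442). LINC00839:10 had 0.988 and 1.11 FPKM in the subline and 2.39 and 1.63 FPKM in the parent, a log2 difference of -0.68 (limma adjusted p = 0.441). The gap was thus smallest in LINC00839:15, which held 49.2% and 43.5% of the sum in the subline libraries and 35.3% and 34.8% in the parental ones. LINC00839:16 led in both parental libraries, with 39.7% and 38.1%. Of the other 5 rows, LINC00839:11 reached 0.857 FPKM in parental library 2, and the remaining 4 did not exceed 0.00489 FPKM.

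LINC00460 kept LINC00460:13 as its leading row in all 4 libraries. It had 3.88 and 3.41 FPKM in the subline and 2.91 and 4.21 FPKM in the parent, which was 42.7% and 31.4% of the sum in the subline and 30.7% and 52.7% in the parent. LINC00460:8 was the 1 tested row of this gene with both subline libraries above both parental ones, at 2.79 and 1.54 FPKM against 1.06 and 1.29 FPKM (log2 difference 0.64, limma adjusted p = 0.513). LINC00460:2, LINC00460:6 and LINC00460:14 moved as a block, with ratios between them of 0.952 to 1.065 in every library. For LINC00460:6 the values were near 0 and 1.61 FPKM in the subline, and 1.40 and 0.0259 FPKM in the parent. This block was thus present in 1 library of each line and near 0 in the other. LINC00460:7 stood at 2.23 FPKM in parental library 2 and near 0 in the other 3 libraries. The last tested row, LINC00460:1, had 0.792 and 0.527 FPKM in the subline and 0.742 and 0.00545 FPKM in the parent, and LINC00460:5 followed it at a ratio of 1.06 to 1.14.

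FOXD2-AS1 was listed as 2 rows of nearly equal value, with ratios of 0.971 to 0.991. FOXD2-AS1:1 had 0.586 and 0.398 FPKM in the subline and 0.443 and 0.835 FPKM in the parent (limma adjusted p = 0.860). FOXD2-AS1:2 had 0.591 and 0.410 FPKM in the subline and 0.450 and 0.853 FPKM in the parent (limma adjusted p = 0.857). It held 50.2% to 50.7% of the sum in every library, and its share overlapped between the lines. Whether reads can tell these 2 rows apart was not tested.

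The genes whose pattern over the 4 libraries was nearest to each member, by the distance between log2 profiles centred on their own means and leaving out names that begin with lnc-, were as follows. LINC00839 was nearest to FOXD3-AS1 (distance 0.079), a lncRNA named for a forkhead gene, then to CEP83-AS1 and PCBP1-AS1. FOXD3-AS1 had 7.54 and 7.88 FPKM in the subline and 11.9 and 11.7 FPKM in the parent (limma adjusted p = 0.353). LINC00460 was nearest to C21orf62-AS1, NPTN-IT1 and MIR17HG, with distances of 0.0497 to 0.0908. LUCAT1 was nearest to LINC01023, RAB11B-AS1 and ZNF582-AS1, at 0.108 to 0.124, and FOXD2-AS1 to NDUFA6-AS1, DBH-AS1 and LINC01001, at 0.111 to 0.148. With 4 libraries many genes share any given profile.

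Other lncRNAs with known links to cancer were set beside the members. Of 49 names in this list, 40 were in the table and 20 passed the filter of 0.5 FPKM. None of the 20 was called, where 0.0621% of all tested genes were, and 5 of them had an unadjusted p under 0.05, where 15.2% of all genes did. Their log2 differences, 10 positive and 10 negative, had a median of 0.018, against 0.09 over all tested genes. In 7 of them both subline libraries lay above both parental ones (28.9% of all tested genes), and in 7 below (21.4%). The 3 most abundant were FGD5-AS1, DANCR and LINC00662. DANCR, a lncRNA known for holding back differentiation of progenitor cells, had 59.4 and 58.7 FPKM in the subline and 80.7 and 78.4 FPKM in the parent (limma adjusted p = 0.469). FGD5-AS1 had 124 and 143 FPKM in the subline and 125 and 117 FPKM in the parent (limma adjusted p = 0.806), and LINC00662 had 62.2 and 47.3 FPKM against 44.8 and 47.2 FPKM (limma adjusted p = 0.686). The list ran from -1.46 for EGOT to 2.67 for LINC00665, so the differences of the 4 members, -0.60 to 0.18, lay within this range. LINC00665 and EGOT were chosen for mention after their values were seen.

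**Figure D4:**
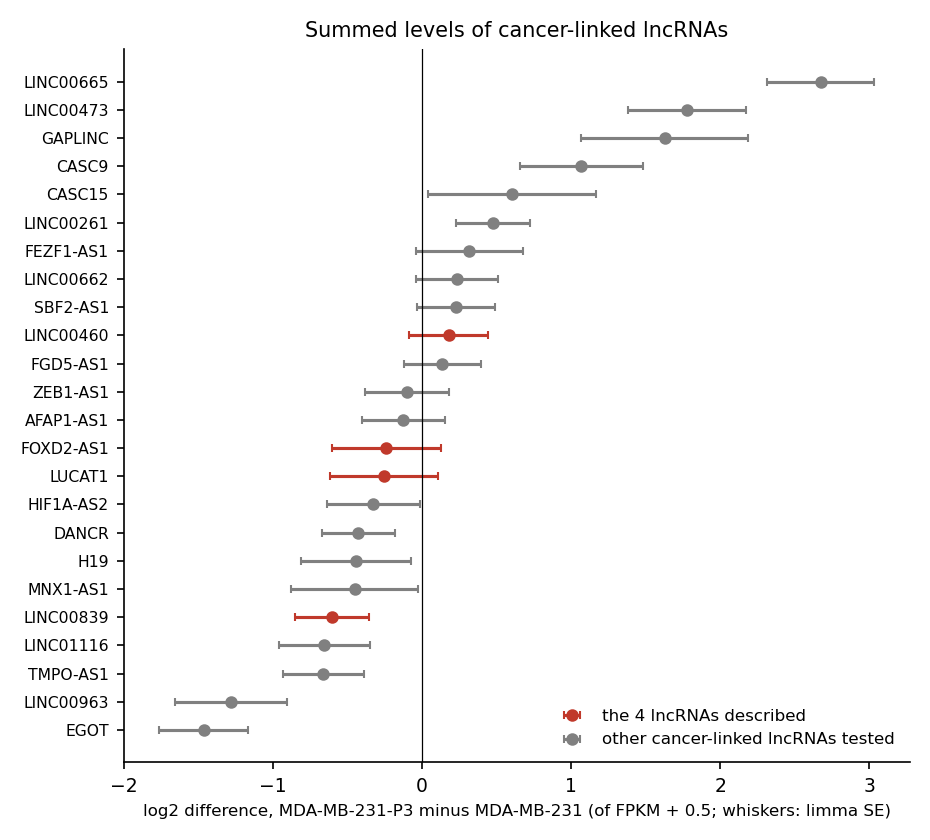
Log2 difference of FPKM + 0.5 (horizontal axis, MDA-MB-231-P3 minus MDA-MB-231) with limma SE for the 4 members in red and the 20 other tested cancer-linked lncRNAs in grey. The list ran from -1.46 for EGOT to 2.67 for LINC00665, and none of the points was called.

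The FPKM of all rows summed to 351135 and 372689 in the subline and to 460282 and 500086 in the parent, and the 10 most abundant rows held 69.4% and 67.9% of this sum in the subline libraries and 72.7% and 67.7% in the parental ones. These shares overlapped between the lines, whereas the sums did not: both subline sums lay below both parental ones. Scaling to these sums, which was not tried, would raise the subline values relative to the parental ones. Centring on the median ratio moved the members the other way. It gave log2 differences of -0.69 for LINC00839, -0.34 for LUCAT1, 0.09 for LINC00460 and -0.32 for FOXD2-AS1. The table holds no protein-coding markers. Of 9 lncRNA markers, 6 were in it: DSCAM-AS1, of luminal breast cells, and MIR205HG, of epithelial cells, were listed at or near 0 in all 4 libraries, MIR155HG of blood cells did not exceed 0.0783 FPKM, and LINC00926, of B cells, was at 1.05 and 0.859 FPKM in the subline and at 0.324 and 1.07 FPKM in the parent. The mesenchymal marker MIR100HG had 44.2 and 41.2 FPKM in the subline and 23.6 and 22.8 FPKM in the parent, and MIR22HG had 10.8 and 10.9 FPKM against 13.7 and 13.5 FPKM. MIR100HG was thus higher and MIR22HG lower in both subline libraries than in both parental ones. The part of the markers in the results was not tested.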

How the data were processed

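RNA of the 4 libraries was aligned to hg19 with HISAT2 and normalized by the authors to FPKM, per the labels' protocols, and the submitters' processing notes also name StringTie. Not given in the sources used here are tool versions, the lncRNA annotation and how reads were assigned to isoforms. The deposited values are FPKM per isoform row, and the 4 per-sample files equalled the series table. Depth is unknown, so no counting interval is given. Rows were summed per gene name. Genes or rows with a mean of at least 0.5 FPKM were tested on log2(FPKM + 0.5), which understates changes of low values, with limma 3.58.1 in R 4.3.3 (intensity trend, two-sided, MDA-MB-231-P3 minus MDA-MB-231), adjusted by Benjamini-Hochberg over all features tested. The fit was also run on simulated data. These had the same spread for every feature and larger changes than those of the summed members. They do not test how the fit handles small differences or unequal spread. Shares had no test. Other settings were pseudocounts of 0.1 and 1, filters, scalings, no trend, a replicate block, and leaving out single libraries. The members, lists and motifs were chosen with earlier results of these data known. Named were all members and their tested rows, the 3 nearest profiles per member and the 3 most abundant of the cancer list. Tested lncRNAs named for genes of the member regions, tested lncRNAs of other forkhead loci and the listed markers were also named. LINC00665 and EGOT were added as the ends of the cancer list. Replicate numbers did not pair the libraries by any label. Promoters came from RefSeq (GRCh38.p14) and were placed on GRCh37 by exact match. Python 3.11.15, numpy 2.4.6, pandas 2.3.3 and matplotlib 3.10.9 were used.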

Additional observations from a re-analysis of the deposited data

How the results depend on the processing

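The 4 summed members and their tested rows stayed uncalled under each setting tried, with adjusted p of 0.256 to 1.0. LINC00839 kept its sign in all of them (-0.68 to -0.53 without single libraries, -0.83 without LINC00839:15), as did LINC00460 (0.056 to 0.30, and 0.40 without LINC00460:7). The limma unadjusted p of LINC00839 was 0.0678 in the main fit, 0.0463 with centring and 0.0134 without the filter. It stayed above 0.05 in the other settings that kept all rows and libraries. LUCAT1 ran from -0.64 to 0.14 and FOXD2-AS1 from -0.56 to 0.088 without single libraries, and the cause of the sign changes was not tested. Row differences also changed sign, and not only those near 0. For LINC00460:2, LINC00460:6 and LINC00460:14 these were -0.073, -0.069 and -0.059 with a pseudocount of 0.1, -0.15, -0.14 and -0.14 with quantile normalization, and -0.055, -0.048 and -0.046 with centring, and without single libraries they ran from -0.89 to 1.06, from -0.89 to 1.081 and from -0.85 to 1.05. LINC00460:13 was -0.045 with centring and -0.19 to 0.28 without single libraries. Without single libraries, LINC00460:1 ran from -0.11 to 0.71, against 0.54 in the main fit. LUCAT1:19 ran from -0.76 to 0.13, against -0.31 in the main fit. Over all features, the 4 called genes became 0 with a pseudocount of 1, without the filter or without the trend, 2 with quantile normalization, and 0 whichever library was left out. The 0 called rows became 6 with a minimum of 1 FPKM, none of them a member. With the replicate number as a block, 0 genes and 0 rows were called, and LINC00839 stayed at -0.60 (limma adjusted p = 0.438). The correlation of the deviations of same-numbered libraries was 0.078 over genes, with 2 pairs. Without 1 library, the lone library of its line is assumed to vary like the other line.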

Other observations

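Of 76 lncRNAs named for genes in the wider regions around the members, 10 passed the filter. None was called by limma over all genes, where 0.0621% of all tested genes were. They were taken by name only, and their own positions were not looked up. Not all of these genes are close to a member: RET lies 581.7 kb from LINC00839. An unadjusted p under 0.05 was reached by 1 of the 10 and by 15.2% of all tested genes. That 1 was lnc-ZNF33B-2, named for the zinc finger gene next to LINC00839, at 5.51 and 5.41 FPKM in MDA-MB-231-P3 and 1.12 and 1.995 FPKM in MDA-MB-231 (log2 difference 1.57, limma adjusted p = 0.257). The others named for genes of the LINC00839 region were lnc-ZNF33B-4, lnc-ZNF33B-12, lnc-ZNF33B-13, lnc-RET-4 and lnc-RASGEF1A-2. Those named for genes of the LUCAT1 region were lnc-ADGRV1-16 and lnc-ARRDC3-2. For LINC00460 the name was lnc-ARGLU1-2, and for FOXD2-AS1 it was lnc-TRABD2B-4. These others had log2 differences of -0.51 to 1.11. All 7 lncRNAs named for FOXD2 stayed at or below 0.303 FPKM in every library. Of 8 names of lncRNAs from other forkhead loci, 7 were listed and 3 passed the filter: FOXD3-AS1, given above, FOXN3-AS1 and FOXP4-AS1. FOXN3-AS1 had 1.20 and 1.30 FPKM in the subline and 1.88 and 2.45 FPKM in the parent (limma adjusted p = 0.388). FOXP4-AS1 had 3.97 and 1.19 FPKM in the subline and 3.87 and 0.699 FPKM in the parent (limma adjusted p = 0.892).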
